A study of Mus musculus with 8 samples.

Results

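The endoplasmic reticulum (ER) stress genes described here are 10 genes chosen by symbol in the table of read counts, out of 13420 mouse genes listed there. All 10 were found, and all 10 were among the 5264 genes with enough reads to be tested. They encode chaperones of the ER lumen (Hspa5, Hsp90b1, Calr, Pdia4 and Sdf2l1), a protein of ER-associated degradation (Herpud1), and regulators of the stress response (Xbp1, Atf4, Ddit3 and Trib3). WT small intestine organoids of mice labelled C57BL/6 (C57BL/6J background in the study's methods) with the mTmG transgene, which gives membrane-bound tdTomato, were grown pure or mixed with cancer organoids. The cancer organoids, labelled C57BL/6 (F6), came from Villin-CreERT2 mice with engineered cancer alleles, among them Apcfl/fl and Tr53fl/R172H, and were tracked by the fluorescent protein Dendra2. The Villin promoter confines this Cre to intestinal epithelium. Mixed cultures were seeded at 2 parts WT to 1 part cancer, and live cells of either color were sorted 3 days later and sequenced in bulk by CEL-Seq, a method that reads the 3′ end of transcripts. Each of the 4 groups had 2 libraries, named by their wells: A01 and A05 (WT, pure), A02 and A06 (WT, mixed), A03 and A07 (cancer, pure), and A04 and A08 (cancer, mixed), so that n = 2 for every group mean and standard deviation (SD) below. The labels do not say whether the libraries of a group came from separate cultures, and p-values therefore measure the spread between these libraries, which may be technical.

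Secreted and membrane proteins fold in the ER. When unfolded proteins accumulate there, the chaperone BiP (the product of Hspa5) leaves the sensors IRE1, PERK and ATF6, which start the unfolded protein response. IRE1 splices Xbp1 mRNA, ATF6 is cut to an active transcription factor, and both raise chaperones and degradation genes, whereas PERK slows translation and favors ATF4, which induces Ddit3 (CHOP) and Trib3. In the intestine, this pathway is best known for maintaining the secretory Paneth and goblet cells. Reads per gene cannot separate spliced from unspliced Xbp1, nor do they show ATF4 protein, which is largely set by translation.

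Total reads ranged from 73109 in mixed WT library A02 to 4733121 in mixed cancer library A04, and 0.646% to 26.1% of the tested genes had 0 reads in a library. In raw reads, replicates differed by more than Poisson noise in every group, with a chi-square of 4.7 to 9.37 per degree of freedom. Reads hold amplification copies, and their part in this excess was not tested. The epithelial markers Epcam, Krt8 and Cdh1 were detected in all 8 libraries. A list of 9 such markers summed to 4770 to 16200 CPM (read counts scaled to library size), but 8 of them had reads in A03 and A07 and 7 in A08. Cdx1 had 836 reads in WT against 4 in cancer libraries, and Cdx2 had 210 against 31. On average over both cultures, 8 of the 9 were lower in cancer cells. A list of markers of immune and stromal cells summed to 0 to 68.8 CPM, most of it Cd68, with 3 reads in WT and 84 in cancer libraries. The Wnt targets Notum and Nkd1, which rise after Apc loss, had 4 and 27 reads over the 4 WT libraries against 420 and 1179 over the 4 cancer libraries. Of the cancer reads, 363 and 1050 came from A04, the deepest library. Notum was at 0 to 4.53 CPM in WT and 26.2 to 98.8 CPM in cancer libraries. Nkd1 was at 0 to 13.1 CPM and 114 to 283 CPM. The 7 tested targets of this kind were divided in pure culture. There, 3 were higher and 4 lower in cancer than in WT cells. Ascl2 was lower, at 36.7 and 32.9 CPM against 146 and 132 CPM. In mixed culture, all 7 were higher in cancer cells. Reads from the 3′ end do not show the deleted or mutated parts of the cancer alleles themselves.

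Of the 10 genes, 4 have promoters with a site of the kind by which the pathway is classically defined. The sequences that carry them are shown here before the expression values. Promoters were taken from RefSeq (build GRCm38.p6) as 250 bases before to 50 bases after the start site, 300 bases in all, and all 10 genes matched 1 entry each. Both strands were searched for the ER stress response element (ERSE: CCAAT, 9 bases, CCACG), the related ERSE-II (ATTGG, 1 base, CCACG), the core of the unfolded protein response element (UPRE: TGACGTGG), and the core of the site shared by CHOP and ATF4 (CARE: TGATGCAA). ERSE and ERSE-II contain the short CCAAT and CCACG boxes, which were also counted alone. ERSE was found in 3 of the 10 genes, Hspa5, Hsp90b1 and Calr, and in 39 of 32851 promoters in RefSeq (0.119%), or 0.137% of genes. Only exact matches were counted. Since the pathway is classically defined by such sites, these shares are a description and not a result about the 10 genes. The 4 promoters with an ERSE or ERSE-II follow 5′ to 3′ along the gene, with the matched letters in capitals. In that of Herpud1, the first capitals are the CARE core and the second are ERSE-II.
Hspa5 (chr2:34771840-34772139, plus strand): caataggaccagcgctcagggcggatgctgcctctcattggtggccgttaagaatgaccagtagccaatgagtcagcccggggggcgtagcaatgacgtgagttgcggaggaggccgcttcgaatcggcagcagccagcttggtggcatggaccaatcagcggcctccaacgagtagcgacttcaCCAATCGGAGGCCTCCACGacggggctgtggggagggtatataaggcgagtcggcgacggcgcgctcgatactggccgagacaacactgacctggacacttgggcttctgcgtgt
Hsp90b1 (chr10:86705395-86705694, minus strand): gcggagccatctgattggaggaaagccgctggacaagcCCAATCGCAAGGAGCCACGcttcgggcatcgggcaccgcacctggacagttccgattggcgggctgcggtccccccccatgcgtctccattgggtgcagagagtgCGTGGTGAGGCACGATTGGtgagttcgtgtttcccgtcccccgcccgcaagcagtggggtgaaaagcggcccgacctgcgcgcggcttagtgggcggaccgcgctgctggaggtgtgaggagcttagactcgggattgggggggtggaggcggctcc
Calr (chr8:84846882-84847181, minus strand): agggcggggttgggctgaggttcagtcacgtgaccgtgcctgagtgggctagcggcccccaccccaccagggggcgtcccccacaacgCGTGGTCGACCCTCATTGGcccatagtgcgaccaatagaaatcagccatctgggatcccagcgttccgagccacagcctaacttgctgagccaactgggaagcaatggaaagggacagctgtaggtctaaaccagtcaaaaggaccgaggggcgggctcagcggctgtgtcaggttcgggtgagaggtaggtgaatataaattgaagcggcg
Herpud1 (chr8:94386179-94386478, plus strand): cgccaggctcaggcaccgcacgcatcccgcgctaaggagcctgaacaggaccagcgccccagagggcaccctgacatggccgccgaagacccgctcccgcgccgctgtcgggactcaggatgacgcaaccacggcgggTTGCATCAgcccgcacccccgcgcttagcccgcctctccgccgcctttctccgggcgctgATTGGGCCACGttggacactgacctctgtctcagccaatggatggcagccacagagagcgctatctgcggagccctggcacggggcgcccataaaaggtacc

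In Hspa5, the ERSE began 65 bases before the start, on the strand of the gene. Hsp90b1 held a pair, beginning 212 bases before the start on its own strand and 107 bases before the start on the opposite strand. The ERSE of Calr began 162 bases before the start, on the opposite strand. Herpud1 had an ERSE-II match 52 bases before the start, a motif present in 12 of the 32851 promoters (0.0365%), and a CARE core 112 bases before the start on the opposite strand, against 0.895% of all promoters. No member held the UPRE core, which occurred in 0.676% of promoters. The single boxes were common, and CCAAT was present in 8 of the 10 genes and in 37.4% of all promoters, and CCACG in 7 of the 10 and in 32.8%. The promoters of Xbp1 and Trib3, shown because these genes had the smallest p-values between cancer and WT cells averaged over both cultures, held none of these letters in this window.
Xbp1 (chr11:5520391-5520690, plus strand): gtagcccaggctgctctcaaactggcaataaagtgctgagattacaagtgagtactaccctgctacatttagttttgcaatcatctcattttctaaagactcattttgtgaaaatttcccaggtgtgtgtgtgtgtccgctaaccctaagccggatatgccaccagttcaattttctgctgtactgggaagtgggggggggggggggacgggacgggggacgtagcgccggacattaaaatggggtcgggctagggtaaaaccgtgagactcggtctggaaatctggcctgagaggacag
Trib3 (chr2:152344011-152344310, minus strand): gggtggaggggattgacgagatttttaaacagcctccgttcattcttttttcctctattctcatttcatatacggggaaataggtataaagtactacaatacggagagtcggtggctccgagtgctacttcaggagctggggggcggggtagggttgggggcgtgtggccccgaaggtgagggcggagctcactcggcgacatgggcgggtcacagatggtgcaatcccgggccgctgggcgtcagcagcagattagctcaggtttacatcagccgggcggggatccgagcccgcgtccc

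**Figure D1:**
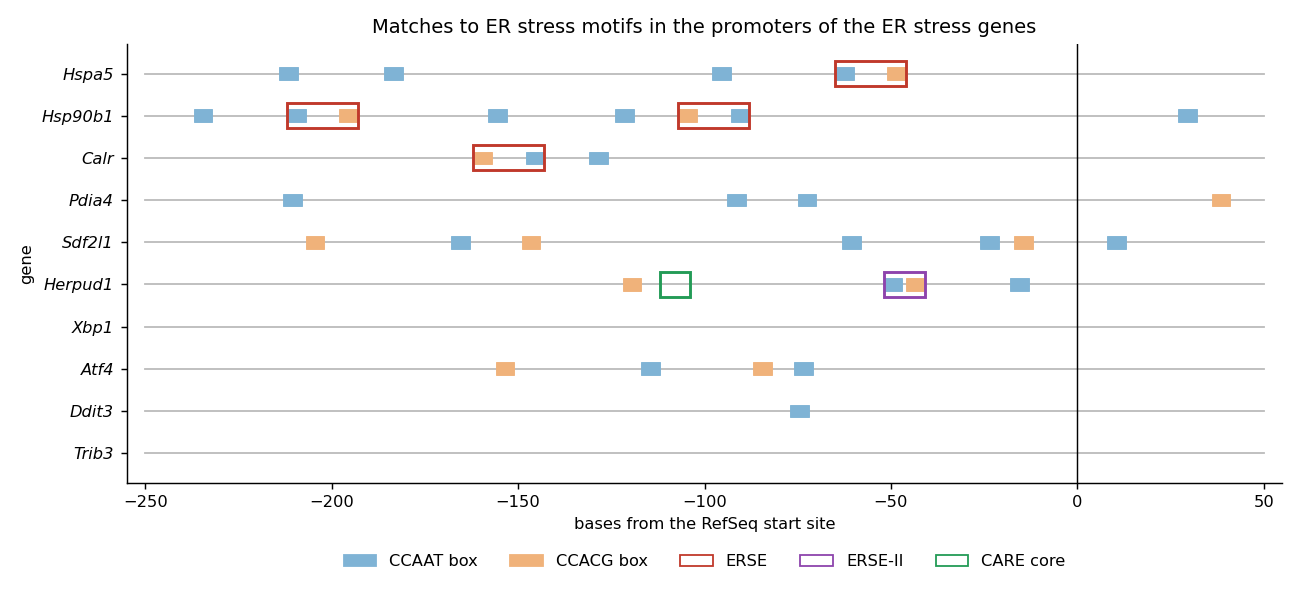
Matches to the ER stress motifs in the promoters of the 10 ER stress genes, with the distance from the RefSeq start site in bases on the x axis and a gene on each line. Open red boxes mark ERSE (Hspa5, Hsp90b1 and Calr), the purple box ERSE-II and the green box the CARE core (both Herpud1), and filled boxes the CCAAT and CCACG letters on either strand. Xbp1 and Trib3 have no mark, and Ddit3 has 1 CCAAT box.

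The lumenal chaperones are described first, in normalized read counts (CPM after TMM scaling). Where no group is named, values are in the order WT pure, WT mixed, cancer pure, cancer mixed, and levels are compared within a gene only. Orders of 2 libraries against 2, here and below, are descriptions only. The share of all tested genes with such an order was not counted. Hspa5 encodes BiP, the HSP70 chaperone of the ER (chromosome 2, 34771970 to 34777547 in GRCm38, 9 exons). Its levels were 76.9 and 82.1, 118 and 70.2, 131 and 129, and 147 and 93.4 CPM. The shallow library A02 gave 118 CPM from 9 reads, with a 95% Poisson interval of 53.9 to 224 CPM, which covers the 3 other WT libraries and all cancer libraries. This interval, like all others on a single library, covers the Poisson error of the reads only and takes no account of amplification copies. Group means ± SD were 79.5 ± 3.67, 94.1 ± 33.8, 130 ± 1.77 and 120 ± 37.9 CPM, and both pure cancer libraries lay above both pure WT libraries.

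Hsp90b1 encodes GRP94, the HSP90 chaperone of the lumen (chromosome 10, 86690209 to 86705509). WT cells had 15.6 and 44.4 CPM pure and 26.2 and 15.9 CPM mixed, while cancer cells had 57.7 and 53.9 CPM pure and 65.9 and 72.6 CPM mixed. All 4 cancer libraries were above all 4 WT libraries, the highest WT value being 44.4 and the lowest cancer value 53.9 CPM. The mixed WT values rest on 2 and 7 reads. Hsp90b1 overlaps other annotated genes, and 4.21% of the 50-base windows in the last 500 bases of its transcript also occur in Gm15344. No other member shared such a window with another gene.

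Calr encodes calreticulin, a lectin chaperone that binds calcium (chromosome 8, 84841850 to 84846934). In WT cells its levels were 437 and 355 CPM pure and 223 and 165 CPM mixed, and in cancer cells 325 and 446 CPM pure and 546 and 482 CPM mixed. The groups of WT cells did not overlap, with both mixed libraries below both pure ones, and mixed cancer cells lay above pure cancer cells without overlap. Means were 396 ± 58.5, 194 ± 40.6, 386 ± 85.3 and 514 ± 44.8 CPM. Calr thus took its lowest level in mixed WT and its highest in mixed cancer cells, while the pure cultures lay between them and overlapped each other.

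Pdia4, a protein disulfide isomerase, was listed at 45.8 and 58.5, 13.1 and 43, 26.2 and 65.8, and 55.8 and 46.7 CPM. Only 1 read stood behind the value of 13.1 CPM in A02, and the WT and cancer ranges overlapped. Sdf2l1, a component of the BiP chaperone complex, was found at 93.3 and 69.7, 184 and 36.2, 68.2 and 35.9, and 89.8 and 31.1 CPM. The mixed WT libraries of Sdf2l1 differed 5.06-fold from each other and the mixed cancer libraries 2.89-fold, and the groups overlapped. Herpud1, whose product recruits the ubiquitin machinery of ER-associated degradation, was the steadiest of the 10 genes, at 69.6 and 55.1, 52.4 and 54.4, 57.7 and 53.9, and 71.2 and 83 CPM. Its replicates differed by 1.04-fold to 1.26-fold. A further gene, Gm15890, lies on the opposite strand of Herpud1, and whether strand was used in counting is not given in the sources used here.

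Among the regulators, Xbp1 encodes the transcription factor that IRE1 activates by splicing (chromosome 11, 5520659 to 5525893, 5 exons). WT cells had 294 and 352 CPM pure and 78.6 and 435 CPM mixed, against 593 and 691 CPM pure and 458 and 840 CPM mixed in cancer cells. All 4 cancer libraries were above all 4 WT libraries, although mixed cancer library A04 (458 CPM) was close to mixed WT library A06 (435 CPM). The low value in A02 came from 6 reads, with an interval of 28.9 to 171 CPM that excludes the level of 435 CPM in the other mixed WT library. Xbp1 and Hsp90b1 were therefore the 2 of 10 genes with all cancer libraries above all WT libraries, beside 434 of the 5264 tested genes (8.24%) with that order.

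Atf4, the transcription factor downstream of PERK and the other eIF2α kinases, showed 259 and 121, 275 and 179, 241 and 419, and 205 and 254 CPM. Pure WT library A05 was lowest and pure cancer library A07 highest, and all 4 groups overlapped with at least 1 other group. Ddit3 encodes CHOP, a transcription factor linked to cell death under prolonged stress. It was at 8.24 and 1.12 CPM in WT cells grown pure and at 39.3 and 11.3 CPM in those mixed, and at 5.25 and 32.9 CPM and 17.4 and 57.1 CPM in the corresponding cancer cells. These values rested on few reads, 9 and 2, 3 and 5, 1 and 11, and 89 and 11. Both mixed WT libraries were above both pure WT libraries, but the intervals of A06 (3.68 to 26.4 CPM) and A01 (3.77 to 15.6 CPM) overlapped. Ddit3 lies opposite Mars and Gm4189, which overlap it on the other strand.

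Trib3 encodes a pseudokinase that ATF4 and CHOP induce and that restrains AKT and ATF4 (chromosome 2, 152337422 to 152344032, 4 exons). WT cells showed 15.6 and 1.12 CPM pure and 26.2 and 6.8 CPM mixed, and cancer cells 105 and 38.9 CPM pure and 61.6 and 25.9 CPM mixed. In reads, these were 17 and 2, 2 and 3, 20 and 13, and 315 and 5. Both pure cancer libraries exceeded both pure WT libraries, whereas over all libraries the groups touched, since mixed cancer library A08 (25.9 CPM) fell just below mixed WT library A02 (26.2 CPM). The spread within pure WT was 13.8-fold, the widest of any member in any group.

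**Figure D2:**
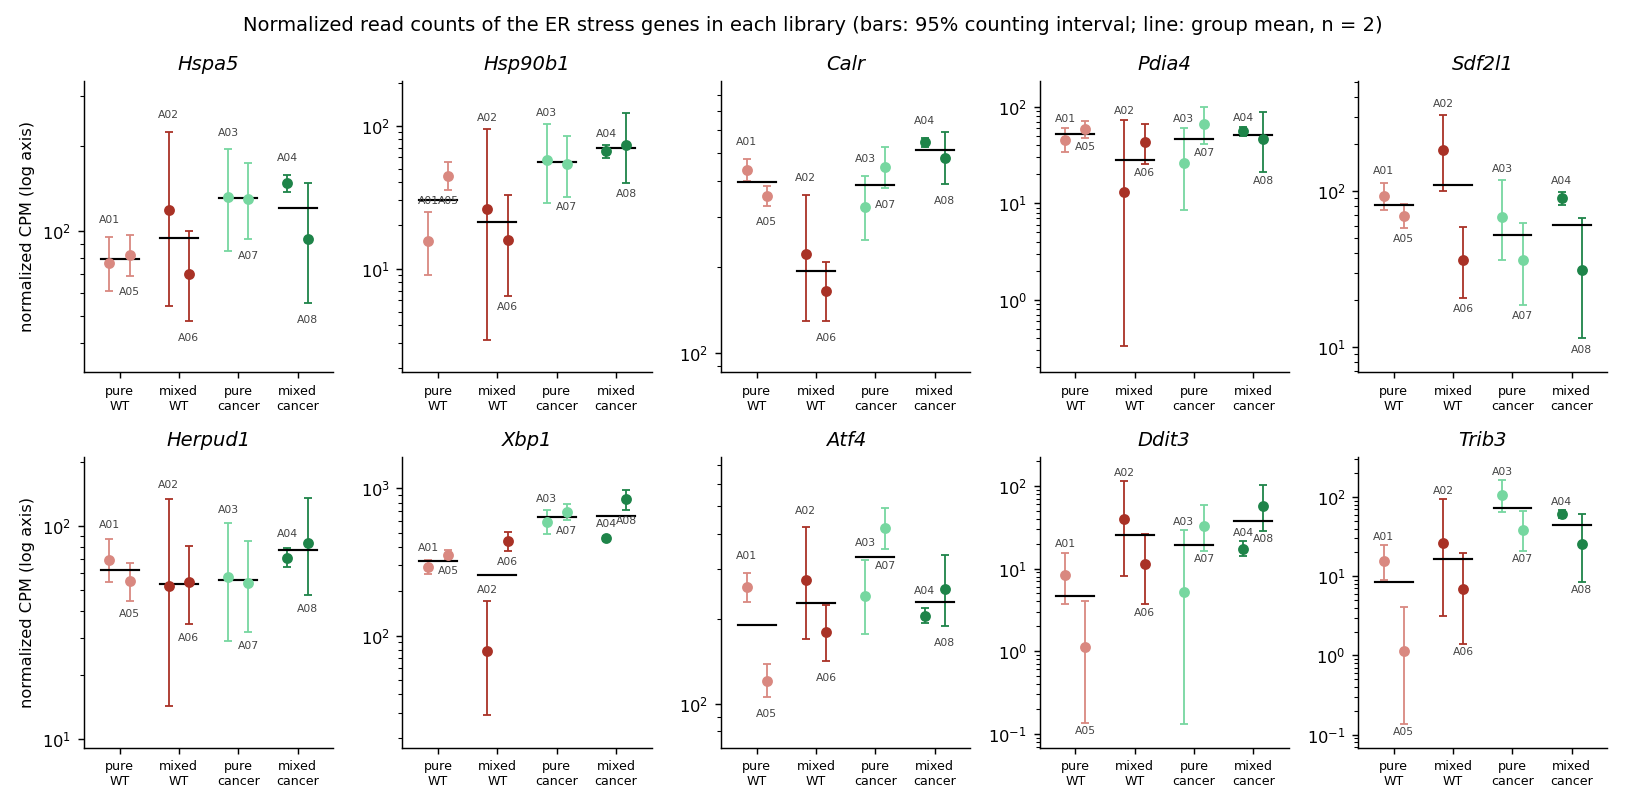
Normalized read counts of the 10 ER stress genes, in CPM on a log axis, for the 4 groups of WT and cancer cells, with the library written at each point. Points are libraries, vertical bars the 95% Poisson interval of the reads, and horizontal lines the group means. Hsp90b1 and Xbp1 are higher in all 4 cancer libraries than in all 4 WT libraries, Calr is lowest in mixed WT, and the bars of A02, the library with 73109 reads, are the widest for most genes.

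The question of whether competition with cancer cells alters these genes in WT cells was addressed by comparing mixed with pure WT cells. None of the 10 genes was called at an adjusted p under 0.05 (edgeR quasi-likelihood test, Benjamini-Hochberg over 5264 genes). In this comparison, 39 of all tested genes were called (0.741%). At an unadjusted p under 0.05, 1 member passed, Calr, where 9.67% of all tested genes did, and DESeq2 called 0 members, again with only Calr under 0.05 before adjustment. Calr was at 0.477 of its pure WT level, a log2 fold change of -1.07 (standard error [SE] 0.463, 95% confidence interval -2.03 to -0.11), with an unadjusted p of 0.0303 and an adjusted p of 0.428 (edgeR). Ddit3 had the next smallest p, with a log2 fold change of 2.11 (SE 1.28, interval -0.54 to 4.76, adjusted p = 0.658 by edgeR). Of the 10 genes, 5 were higher and 5 lower in mixed WT, and their median log2 fold change was -0.03, beside -0.10 over all tested genes. Hspa5, the classical readout of the pathway, differed by 0.14 on the log2 scale, with an interval of -1.06 to 1.34 that leaves room for a doubling in either direction. Without mixed WT library A06, which leaves the shallow A02 alone in its group, the median of the members was 0.07 and that of all tested genes -0.74. Without A02, no member was called.

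In the cancer cells, mixing was compared in the same way, using mixed and pure cancer libraries. Again, no member was called (edgeR), and 0 of all tested genes were (0%). None of the 10 had an unadjusted p under 0.05, against 1.31% of all tested genes, and DESeq2 called 0 members and had 0 under that unadjusted threshold. The smallest p belonged to Atf4, with a log2 fold change of -0.55 (SE 0.501, interval -1.58 to 0.49), and to Calr, at 0.41 (SE 0.438, interval -0.49 to 1.32), both with an adjusted p of 1 in edgeR. Xbp1 was at 0.00 (interval -1.08 to 1.08). The median of the members was 0.21, beside 0.03 for all tested genes.

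Whether the change upon mixing differed between cancer and WT cells was tested directly as an interaction. It was called for 0 of the 10 genes and for 4 of all tested genes (0.076%). Calr had the smallest p, since it was lower in mixed WT and higher in mixed cancer cells. The difference was 1.48 on the log2 scale (SE 0.637, interval 0.16 to 2.80), with an unadjusted p of 0.0291 and an adjusted p of 0.613 (edgeR). On barcode counts, of which a gene can have no more than 256, the difference was 0.13 (adjusted p = 0.962), and on transcript estimates 1.05 (adjusted p = 0.587, edgeR). Calr was the only member under the unadjusted threshold of 0.05, which 7.28% of all tested genes passed, and DESeq2 likewise called 0 members with 1 under that threshold. Atf4 came next, at -0.76 (SE 0.719, adjusted p = 0.873, edgeR). The mixing comparisons each use the mixed and pure libraries of 1 genotype, and the interaction uses all 8.

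Cancer and WT cells were then compared in pure culture. Trib3 was the 1 member called (edgeR), beside 9.95% of all tested genes. It was 8.86-fold higher in pure cancer than in pure WT cells (log2 fold change 3.15, SE 0.98, interval 1.12 to 5.17), with an adjusted p of 0.0415 in edgeR and of 0.0518 in DESeq2, which therefore called 0 members and had 1 under 0.05 before adjustment. The call depended on single libraries, and without pure cancer library A03 the adjusted p was 0.153, and without pure WT library A05 it was 0.425 (edgeR). The log2 fold change itself ranged from 2.22 without A05 to 5.77 without A01. It was also lost on barcode counts, which count each molecule tag of a gene once, with a log2 fold change of 1.89 and an adjusted p of 0.101 (edgeR). Ddit3 had the next smallest p, at 2.24 (SE 1.16, interval -0.16 to 4.64, adjusted p = 0.287, edgeR), and it was 0.18 without pure cancer library A07. Of the 10 genes, 6 were higher and 4 lower in pure cancer cells, and their median was 0.76, beside -0.05 over all tested genes. Without A07, this median was 0.21 and that of all tested genes -0.33. Pdia4 (-0.13) and Calr (-0.03) were near 0, and Sdf2l1 was at -0.68 (interval -2.20 to 0.83).

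Between mixed cancer and mixed WT cells, both sorted from mixed cultures, 0 members were called by edgeR or DESeq2, beside 6.42% of all tested genes. At an unadjusted p under 0.05, Calr, Hsp90b1 and Xbp1 passed in edgeR, 3 of 10 members against 16.4% of all tested genes, and 3 members also did so in DESeq2. Calr was 2.73-fold higher in mixed cancer cells (log2 fold change 1.45, SE 0.468, interval 0.48 to 2.42), with an adjusted p of 0.0697 (edgeR). Hsp90b1 was at 1.89 (SE 0.848, interval 0.14 to 3.64, adjusted p = 0.251, edgeR). Leaving out A03 or A07, which are in neither group but share the filter, scaling and spread of the fit, gave Calr an adjusted p of 0.0459 or 0.0458 (edgeR). On barcode counts it was at 0.46 (adjusted p = 0.765), and on transcript estimates at 1.10 (adjusted p = 0.145, edgeR). Without mixed WT library A06, Xbp1 was called and Calr was not. Here 9 of 10 members were higher in cancer cells, against 55% of all tested genes. Their median was 0.69, beside 0.12 over all tested genes. Without A06, which leaves the shallow A02 alone in mixed WT, these medians were 0.76 and 0.69, so that the members then lay close to all genes. With any other library left out, the all-gene median was between -0.076 (without A04) and 0.224 (without A05). The members' median stayed between 0.67 and 0.88 over all fits with 1 library left out. The 1 member lower in cancer cells was Sdf2l1 (-0.48).

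Averaged over pure and mixed cultures, the comparison of all 4 cancer with all 4 WT libraries called Trib3, 1 of the 10 genes, beside 14.2% of all tested genes. Trib3 was 6.09-fold higher in cancer cells (log2 fold change 2.61, SE 0.757, interval 1.04 to 4.17, adjusted p = 0.0198 in edgeR and 0.0314 in DESeq2). The adjusted p rose to 0.136 without A04, 0.0751 without A05 and 0.104 without A06 (edgeR), and the log2 fold change ranged from 2.02 without A06 to 3.88 without A01. Xbp1 was 2.13-fold higher (log2 fold change 1.09, SE 0.376, interval 0.31 to 1.87), with an adjusted p of 0.0548 that missed the threshold in edgeR. It was past the threshold in 8 of 15 alternative analyses, with adjusted p between 0.0012 and 0.315. Without the library A02, where Xbp1 had 6 reads, its log2 fold change was 0.75 (adjusted p = 0.162, edgeR), and without A06 it was 2.03 (adjusted p = 0.0012, edgeR). Hsp90b1, named because its libraries did not overlap, was at 1.38 (SE 0.551, interval 0.24 to 2.52, adjusted p = 0.108, edgeR). With Calr, these were the 4 members under an unadjusted p of 0.05, where 24.7% of all tested genes were. Of the 10 members, 9 were higher in cancer cells, against 52.4% of all tested genes. Their median was 0.66, beside 0.04 over all tested genes, and without A06 these medians were 0.78 and 0.39. This average and the separate comparisons in pure and mixed culture use the same libraries.

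**Figure D3:**
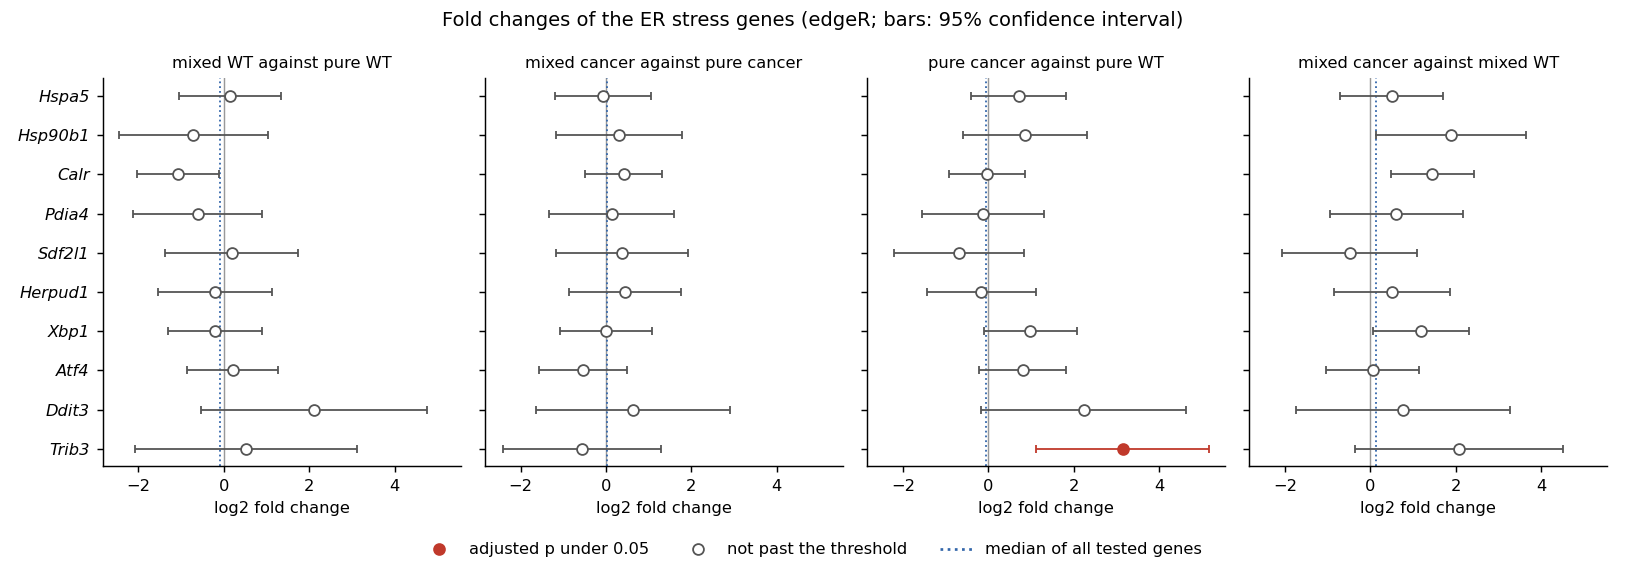
Log2 fold changes of the 10 ER stress genes in the 4 comparisons of groups, with 95% confidence intervals from edgeR. The filled red point is the 1 call, Trib3 in pure cancer against pure WT cells (3.15), open points did not pass, and dotted lines are the medians of all 5264 tested genes. Upon mixing, the points lie between -0.56 and 0.63 in cancer cells, and in WT cells between -1.07 (Calr) and 2.11 (Ddit3).

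Across the 8 libraries, the 10 genes did not move as 1 block. Among their 45 pairs, 32 had a positive Pearson r of log2 CPM, with a median of 0.24. The highest r were those of Hspa5 with Trib3 (0.81), Pdia4 with Xbp1 (0.72) and Atf4 with Ddit3 (0.71), and the lowest that of Sdf2l1 with Xbp1 (-0.86). Within the PERK arm, r was 0.66 for Atf4 with Trib3 and 0.46 for Ddit3 with Trib3. These coefficients are a description of 8 libraries that differ in depth and fall into 2 genotypes. The 10 genes together took 0.0872% to 0.13% of reads in the 4 WT libraries and 0.146% to 0.197% in the 4 cancer libraries, without overlap. Xbp1 by itself also lay without overlap, at 78.6 to 435 CPM in WT and 458 to 840 CPM in cancer libraries. The share without Xbp1 was not computed. The summed level in WT cells was 1230 ± 127 CPM pure and 1030 ± 14.1 CPM mixed, and in cancer cells 1790 ± 255 CPM pure and 1860 ± 191 CPM mixed, sums in which Calr, Xbp1 and Atf4 weigh most. The 5 chaperones alone summed to 639 ± 42.4, 448 ± 165, 670 ± 85.6 and 815 ± 126 CPM, and here WT and cancer libraries overlapped. In bulk samples, more cells of a type and more RNA per cell cannot be told apart.

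Other genes of the same pathway were examined in fixed lists. Of 37 further lumenal folding genes, 29 were tested. In mixed against pure WT cells, 1 of them was called higher and 0 lower, beside 0.741% of all tested genes. Still, 25 of the 29 were lower (median -0.74), while 44.8% of all tested genes were higher (median -0.10). Without A06, 20 of the 29 were lower, with a median of -0.61 beside -0.74 over all tested genes. The called gene was Ero1l, an oxidase that drives disulfide formation in the lumen. It measured 63.1 and 39.9 CPM in WT cells grown pure, 315 and 217 CPM in WT cells after mixing, and 332 to 572 CPM in the 4 cancer libraries. All mixed WT and cancer libraries were thus above both pure WT libraries. Ero1l rose with mixing in WT cells by 2.34 on the log2 scale (SE 0.502, adjusted p = 0.0284, edgeR), with adjusted p of 0.364 without A05 and 0.0796 without A06. In pure culture it was higher in cancer than in WT cells by 3.35 (adjusted p = 6.78e-05, edgeR), a call made under all 16 alternatives. There it was the 1 called gene of the 29, beside 9.95% of all tested genes. In cancer against WT cells on average, 3 of the 29 were called higher and 0 lower, beside 14.2% of all tested genes. They were Ero1l (2.06), Creld1 (3.13, adjusted p = 0.00359) and the prolyl isomerase Fkbp11 (1.90, adjusted p = 0.0063, edgeR). Of the 29, 17 were higher and 12 lower, against 52.4% of all tested genes higher. The list median was 0.44, beside 0.04 over all tested genes. The call of Creld1 was lost without A06 (adjusted p = 0.055) and that of Fkbp11 without A08 (adjusted p = 0.0877, edgeR). Fkbp11 was also the 1 gene of the 29 called between mixed cancer and mixed WT cells (2.52, adjusted p = 0.0362, edgeR), beside 6.42% of all tested genes. This call again depended on single libraries, with log2 fold changes of 1.45 without A08 and 2.03 without A06.

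The stress sensors and the proteases that process them were poorly covered, and 4 of the 16 genes listed were tested. In pure cancer against pure WT cells all 4 were lower (median -1.58), and in mixed culture 3 were higher and 1 lower (median 0.22). On average over both cultures all 4 were lower in cancer cells (median -0.60). None was called in any comparison by edgeR or DESeq2, at most 1 had an unadjusted p under 0.05 in a comparison, and the smallest p upon mixing in WT cells was that of Creb3l1, an ER-anchored transcription factor (-2.07, SE 0.911, adjusted p = 0.442, edgeR). Of 27 genes of ER-associated degradation, 18 were tested and 0 were called upon mixing in WT cells (0 also in DESeq2, and 0 at an unadjusted p under 0.05 in either), the smallest p being that of the ubiquitin-conjugating enzyme Ube2g2 (-1.54, adjusted p = 0.631, edgeR). Ube2g2 was the 1 gene of these 18 called in cancer against WT cells on average (2.07, adjusted p = 0.0118, edgeR), beside 14.2% of all tested genes. This call depended on single libraries, with log2 fold changes of 1.90 without A04 and 1.96 without A05. Among 35 genes of translocation into the ER and of glycosylation, 30 were tested. None was called upon mixing in WT cells by edgeR or DESeq2, and 1 had an unadjusted p under 0.05 in each, which in edgeR was Ddost, a subunit of the oligosaccharyltransferase (-1.86, adjusted p = 0.129). In cancer cells on average, 28 of the 30 were higher, against 52.4% of all tested genes. The list median was 0.46, beside 0.04 over all tested genes, and 0.43 beside 0.39 without A06. Only 1 gene of the 30 was called, beside 14.2% of all tested genes, namely Ssr3 of the translocon-associated complex (1.34, adjusted p = 0.0299, edgeR). It was called in 7 of 15 alternatives and was at 1.21 without A01. Ssr3 was also the 1 gene called between pure cancer and pure WT cells (2.05, adjusted p = 0.0212, edgeR), beside 9.95% of all tested genes. That call depended on each of A01, A03, A05 and A07, with log2 fold changes from 1.80 without A01 to 2.37 without A05.

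Of 44 further ATF4 and CHOP targets, 35 were tested. None was called upon mixing in WT cells by edgeR, 6 had an unadjusted p under 0.05 (3 higher and 3 lower), and DESeq2 called 2, Nupr1 and Shmt2. The smallest p in edgeR was that of Shmt2, a mitochondrial enzyme of serine metabolism (-1.98, SE 0.502, adjusted p = 0.0725). In pure cancer against pure WT cells, 2 of the 35 were called higher and 0 lower, beside 9.95% of all tested genes, the stress-induced Nupr1 (4.05, adjusted p = 0.000502) and the translation inhibitor Eif4ebp1 (1.89, adjusted p = 0.00817, edgeR). Eif4ebp1 had an adjusted p of 0.184 without A05 and 0.0819 on barcode counts (edgeR). Nupr1 was at 11.9 and 7.87 CPM in WT cells grown pure, at 131 and 52.1 CPM in WT cells after mixing, and between 68.2 and 248 CPM in the 4 cancer libraries, so that all other libraries were above both pure WT libraries. Between mixed cancer and mixed WT cells, where 6.42% of all tested genes were called, 2 were called higher, Eif4ebp1 (1.85, adjusted p = 0.0163) and the amino acid transporter subunit Slc7a5 (3.52, adjusted p = 0.0064), and 1 lower, the cytokine Gdf15 (-3.98, adjusted p = 0.0412, edgeR). These 3 calls were lost without single libraries, that of Eif4ebp1 without A02, A04 or A06, that of Slc7a5 without A04 or A06, and that of Gdf15 without A01, A02, A04, A05 or A06, with adjusted p between 0.0519 and 0.329 (edgeR). On barcode counts Eif4ebp1 was at 0.61 (adjusted p = 0.75) and on transcript estimates at 1.14 (adjusted p = 0.16, edgeR). On average over both cultures, 4 of the 35 were called higher and 1 lower, a share like the 14.2% of all tested genes. Those higher were Eif4ebp1 (1.87), Nupr1 (2.56), Slc7a5 (2.04) and, named after its values were seen, the partner of Slc7a5, Slc3a2 (1.37), with adjusted p between 0.000216 and 0.00684 (edgeR). The call of Slc3a2 was lost without A07 (adjusted p = 0.0697) and on barcode counts (0.81, adjusted p = 0.129), as was that of Eif4ebp1 on barcode counts (1.22, adjusted p = 0.109, edgeR). The lower one was Gdf15 (adjusted p = 0.0089, edgeR, and 0.175 without A01), for which no fold is given since it had 0 reads in both pure cancer libraries. In WT cells Gdf15 was at 22.9 and 2.25 CPM pure and 105 and 58.9 CPM mixed.

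Markers of secretory cell types, which are rich in ER, also differed between the cells compared. Goblet markers summed to 3090 to 4160 CPM in WT and 472 to 1140 CPM in cancer libraries, with 12 of 13 markers in the table. The defining goblet genes Tff3, Agr2 and Muc2 had 6568, 982 and 39 reads in WT against 24, 11 and 1 in cancer libraries, and the remaining sum in cancer cells was mostly Spink4. Paneth markers (15 of 16 in the table) summed to 2220 to 4290 CPM in WT cells grown pure, 983 to 1580 CPM in those mixed and 525 to 897 CPM in cancer libraries, the last mostly Mmp7, with Lyz1 at 3192 reads in WT against 18 in cancer libraries. Enteroendocrine markers (14 of 15) summed to 445 to 1030 CPM in WT and 0 to 3.13 CPM in cancer libraries, and enterocyte markers (15 of 16) to 1960 to 2270 CPM and 71.8 to 137 CPM. The summed level of other lumenal folding genes was 4090 to 4450 CPM in cancer and 2830 to 3530 CPM in WT libraries, without overlap. Ero1l, part of this sum, was at 332 to 572 CPM in cancer and 39.9 to 315 CPM in WT libraries. Of the 29 tested genes, 17 were higher and 12 lower in cancer cells on average, against 52.4% of all tested genes higher. The part of cell composition in the levels of the ER stress genes was not tested.

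**Figure D4:**
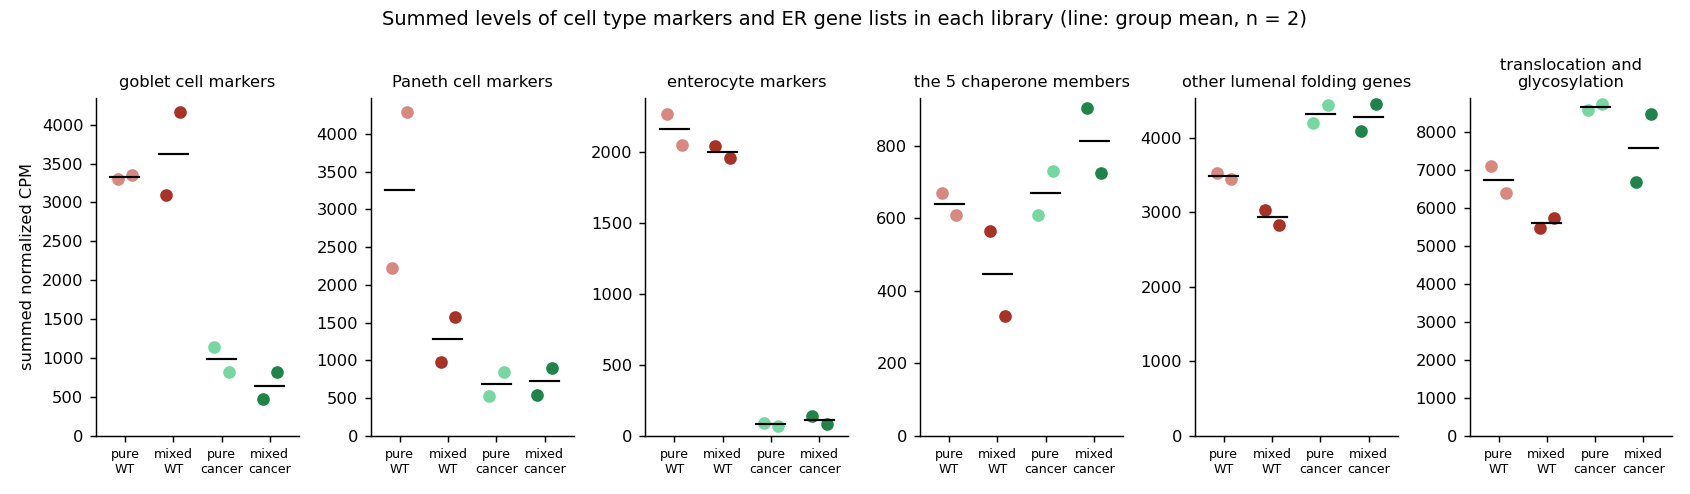
Summed CPM per library of markers of goblet, Paneth and enterocyte cells, of the 5 chaperones among the ER stress genes, of other lumenal folding genes, and of genes for translocation and glycosylation, each on its own linear axis from 0. Points are libraries and lines group means. The 4 cancer libraries lie below all WT libraries for the 3 marker lists, above all WT libraries for other lumenal folding genes (4090 to 4450 against 2830 to 3530 CPM), and overlap with them for the 5 chaperones. Of the tested other lumenal folding genes, 17 were higher and 12 lower in cancer cells on average, and Ero1l is part of their sum.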

How the data were processed

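RNA of sorted pure and mixed WT and cancer organoid cells was sequenced by CEL-Seq. According to the paper's methods, BWA placed the second read of each pair on RefSeq transcripts of mm10, reads with several equal matches were dropped, and featureCounts assigned the rest to genes. Versions of these tools are not given in the sources used here. The authors deposited unnormalized read counts per gene, counts of different molecule barcodes, and estimated counts of transcripts made from the barcodes. Read counts were not collapsed by barcode and so hold amplification copies. A table of the authors' own DESeq2 comparison (version 1.22.2) of WT cells, mixed and pure, was deposited as well and holds their mean signal, log2 fold changes, Wald score and p-values. It was not used.

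Libraries were grouped by their labels, and 2 entries that name no mouse gene (at most 5.25e-05% of reads in a library) were left out. Read counts were tested with edgeR 4.0.16 in R 4.3.3 using filterByExpr at a minimum count of 10, TMM factors and a single quasi-likelihood fit of 8 libraries, and called at an adjusted p under 0.05 (Benjamini-Hochberg over 5264 genes). Levels are CPM on TMM-scaled library sizes, from which 1 read makes 0.196 CPM in A04 and 13.1 CPM in A02. Correlations used log2 CPM at a prior count of 2. Alternatives were barcode counts, transcript estimates (rounded), scaling by median of ratios or by upper quartile, a minimum count of 50 or none, DESeq2 1.42.0, a fit of only the 4 libraries compared, and each library left out in turn. Calls were tested on simulated data. Gene positions and shared windows came from GENCODE M21.

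The members, lists and tests were chosen with earlier results of these data known. Fold changes are printed with tests for members called or among the 2 smallest p-values of a comparison, and from each list for at most 3 called genes per direction and the smallest p upon mixing in WT cells. Others are given as descriptions. An allele of the cancer line and 1 gene like Hspa5 are not reported here.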

Additional observations from a re-analysis of the deposited data

How the results depend on the processing

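The count of members called stayed at 0 in both mixing comparisons and in the interaction under every alternative run. In pure cancer against pure WT cells, the 1 call became 0 with barcode counts, transcript estimates, a minimum count of 50, DESeq2 and a fit of only the 4 libraries compared, and 0 to 1 when single libraries were left out (0 without A03 or A05). The members' median there ranged from 0.21 to 0.73 with single libraries left out, against 0.76. In mixed cancer against mixed WT cells, 0 to 1 members were called without single libraries. Averaged over both cultures, 2 members were called with barcode counts (Hsp90b1 and Trib3), 3 with transcript estimates (with Xbp1), 2 each with median-of-ratios factors, upper-quartile factors and no filter (Xbp1 and Trib3), 0 with a minimum count of 50, and 1 to 2 without single libraries, while the median was 0.40 with barcode counts. Calr in mixed against pure cancer cells turned to -0.36 with barcode counts, where it filled 251 of at most 256 barcodes in A04. On transcript estimates it was at 0.11, beside 0.41 on read counts. The minimum count of 50 left 4 members, and so no value for Trib3. Apart from this missing value of Trib3, the cause of the changes, that of Calr among them, was not tested.

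Over all tested genes, the count called ranged from 2 to 118 in mixed against pure WT cells (39 as reported, 66 with DESeq2), from 232 to 745 in pure and from 151 to 506 in mixed cancer against WT cells, from 314 to 963 on average, and from 1 to 32 for the interaction (4 as reported, 13 with DESeq2). Median-of-ratios factors moved the all-gene median of the interaction from 0.17 to 0.0556, and leaving out single libraries moved it further, to 0.899 without A06, 0.55 without A07 and -0.0912 without A04. The shallowest library, A02, with 73109 reads, limits every statement on mixed WT cells. No test was paired, since the labels give each library its own well and do not say whether A01 to A04 and A05 to A08 are separate experiments. The values of the pathway lists without A06 were added after the data were seen.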

Other observations

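Among the tested genes whose log2 CPM over the 8 libraries was most like that of Hspa5, out of 2744 genes whose reads averaged 50 or more in a library, were Stip1 (Pearson r = 0.905), Morf4l2 (0.901), Ing1 (0.899) and Ufsp2 (0.883). Stip1 encodes a cochaperone of the cytosolic HSP70 and HSP90 machinery. Those most like Atf4 were Arf1 (0.883), Yrdc (0.829), Fxr2 (0.822), Tmem11 (0.806) and Psmg4 (0.804). No other member of the ER stress genes was among the 5 most like either gene, and with 8 libraries of 2 genotypes and unequal depth these values are a description only.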
